A study of Rattus norvegicus with 56 samples.

Results

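The metabotropic glutamate receptor genes Grm2, Grm3, Grm4, Grm5, Grm7 and Grm8 were examined in hippocampal and parietal cortical tissue of rats that had received intermittent theta burst stimulation (iTBS) or a sham procedure in vivo. Their probes were taken as the non-control probes whose transcript accession, with the version dropped, belonged to 1 of these 6 rat symbols in RefSeq. All 6 genes had a probe, and they made up 6 of the 16581 named genes and 10 of the 45598 probes of the array. Grm2, Grm5, Grm7 and Grm8 had 2 probes each, and Grm3 and Grm4 had 1.

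The animals were male Long-Evans rats, 6 to 7 months old (young, Y) or 26 to 27 months old (aged). Per the labels, the aged rats had been classed by baseline performance in the Morris water maze as unimpaired (AU) or impaired (AI). In iTBS short bursts of magnetic pulses are delivered through the skull, here by a figure-eight coil aimed at the axons of the corpus callosum, and in sham rats the coil was held away from the head. Sham and stimulated rats alike were sedated with isoflurane and dexmedetomidine, and tissue was taken 48 h later. Each region was represented by 24 rats, 4 in each sham group (Y_Sham, AU_Sham and AI_Sham), 4 in Y_iTBS, 5 in AU_iTBS and 3 in AI_iTBS, and both regions came from the same animals. The labels hold more rats than the study's methods describe for the in vivo experiment. The tissue was microdissected dorsal hippocampus or neocortex from under the coil center, labelled hippocampus and parietal cortex, and was not sorted by cell, so fewer cells of a type and less RNA per cell cannot be told apart.

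Metabotropic glutamate receptors are G protein-coupled receptors that tune glutamate transmission more slowly than the ion channel receptors. Group I receptors, of which Grm5 encodes mGlu5, are mainly postsynaptic and couple through Gq to phospholipase C and calcium release, with Homer proteins as their scaffold. Group II (Grm2, Grm3) and group III (Grm4, Grm7, Grm8) receptors couple through Gi/o, lower cyclic AMP, and mostly act at presynaptic terminals as brakes on transmitter release. Grm3 is also expressed by astrocytes, and the neuropeptide NAAG is its agonist.

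All 10 probes passed the detection filter (well above background in at least 3 of 24 animals of a region), and none was saturated on any array. Of these, 9 were well above background in 24 of 24 animals in both regions, and the second Grm8 probe was so in 17 of 24 hippocampal and 24 of 24 cortical samples. Signals are given on a normalized log2 scale on which 0 is the mean of an array. The lead probe of a gene is the one well above background on most arrays, or the brighter one in a tie. Signals of different probes depend on the probe and are not compared with each other. On the 6 technical repeats that were averaged, the lead probes differed from the first array by at most 0.30 (Grm4), with medians of 0.04 (Grm3) to 0.12 (Grm4). The second probes of Grm2, Grm7 and Grm8 had larger median differences, of 0.26, 0.30 and 0.28.

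Between 59.4% and 69.7% of the probes of an array were well above background. All 5 hippocampus markers (Zbtb20, Wfs1, Nr3c2, Klk8, Neurod6) were higher in hippocampus, and 6 of 7 parietal cortex markers (all but Rspo1) were higher in cortex. The first arrays of 15 animals were scanned in batch 1 (1 scan day) in both regions. Those of the other 9 were scanned in later batches, in which hippocampus and cortex were scanned apart except for AU_iTBS 3. Apart from that rat, a regional difference in the later batches cannot be told apart from one between scan batches. All 6 groups were present in the first and in the later batches. The cortical sample of Y_Sham 4 stood apart in its microglia markers, with a mean of 3.27 against 4.56 to 5.63 in the other 23 rats, and in its striatum markers, with 1.89 against 3.02 to 3.64. Without Y_Sham 4 the regional differences given below were -0.25 for Grm3, -0.63 for Grm4, 0.39 for Grm5 and -1.43 for Grm8. The repeat array of the AI_iTBS 2 cortex resembled AI_Sham 2 (r 0.8051 over 500 probes) more than its own first array (r 0.1117), and was not averaged.

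RefSeq promoter windows (GRCr8, 250 bases before to 50 after the annotated start) were at hand for 3 of the 6 genes. They are shown because they were available, and a relation of sequence to regional signal was not tested. The lead probes of Grm5 and Grm8 differed between the regions in opposite directions, and that of Grm7 did not pass the test. For Grm5 and Grm7 this depends on the probe, since the second Grm7 probe passed and the second Grm5 probe did not. Capitals mark the GC box GGGCGG, searched on both strands (CCGCCC on the other).
Grm5, chr1:150733503-150733802, plus strand: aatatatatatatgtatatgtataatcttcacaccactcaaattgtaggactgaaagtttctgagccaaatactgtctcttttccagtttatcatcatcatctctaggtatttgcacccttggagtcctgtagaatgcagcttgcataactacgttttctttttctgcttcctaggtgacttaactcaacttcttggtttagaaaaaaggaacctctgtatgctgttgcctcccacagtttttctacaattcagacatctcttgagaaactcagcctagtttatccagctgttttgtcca
Grm7, chr4:145286476-145286775, plus strand: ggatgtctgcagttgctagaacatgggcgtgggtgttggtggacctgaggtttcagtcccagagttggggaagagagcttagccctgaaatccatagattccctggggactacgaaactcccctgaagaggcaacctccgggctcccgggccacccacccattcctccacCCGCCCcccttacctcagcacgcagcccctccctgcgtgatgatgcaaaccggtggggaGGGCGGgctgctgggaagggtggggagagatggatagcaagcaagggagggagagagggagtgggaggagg
Grm8, chr4:57687457-57687756, minus strand: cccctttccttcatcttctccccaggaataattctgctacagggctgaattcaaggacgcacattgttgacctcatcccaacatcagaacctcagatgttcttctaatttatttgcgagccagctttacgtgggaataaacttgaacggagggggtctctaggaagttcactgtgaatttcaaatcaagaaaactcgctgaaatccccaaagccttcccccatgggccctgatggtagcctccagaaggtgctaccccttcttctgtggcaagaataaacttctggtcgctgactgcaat
The motif was found 2 times in the Grm7 window and not in these letters of the Grm5 and Grm8 windows, and 33.1% of 33469 such windows hold it. The GC content was 37.3% for Grm5, 62.0% for Grm7 and 47.3% for Grm8, against a median of 51.7% over all windows. CpG dinucleotides numbered 1, 9 and 6 in the same order, with a median of 7.

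The comparison of regions asked where each receptor gene is expressed more strongly in the same animals. Of the 6 lead probes, 4 passed the limma test (Benjamini-Hochberg adjusted p under 0.05 over all probes tested). Grm8, Grm4 and Grm3 were higher in cortex and Grm5 was higher in hippocampus, while Grm2 and Grm7 did not pass. Regional differences were common, and 49.5% of the 33736 probes tested passed (26.3% higher in hippocampus and 23.2% higher in cortex), so a share of 4 in 6 is near that of the array as a whole. The median difference of the 6 lead probes was -0.13.

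**Figure D1:**
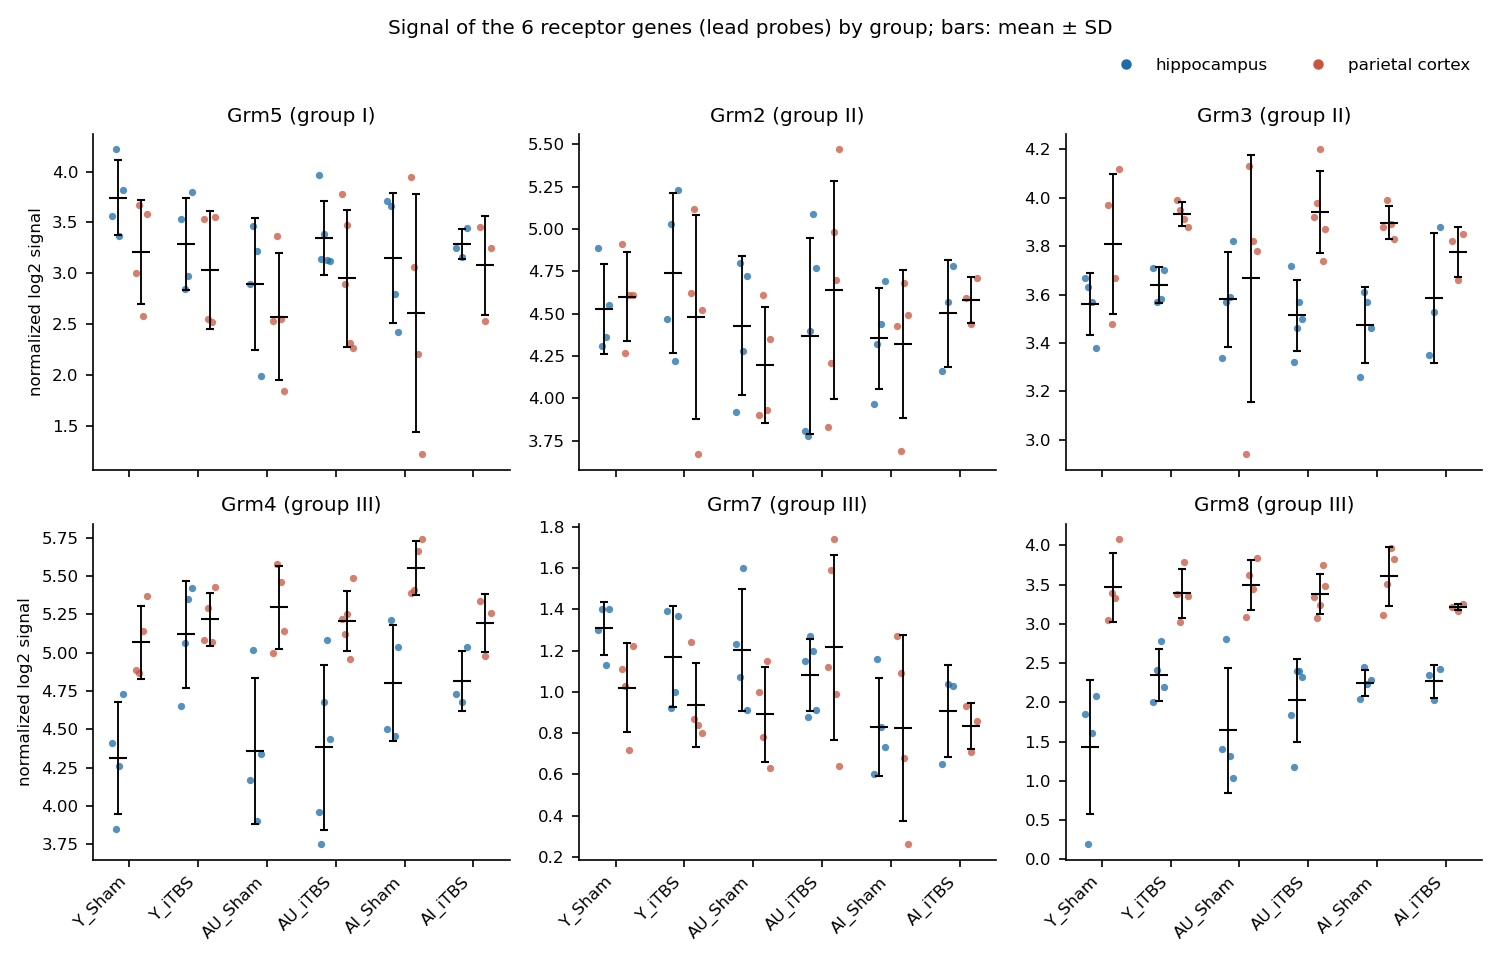
Normalized log2 signal of the lead probe of each receptor gene (vertical axis, scaled separately in each panel) in the 6 groups, with 1 point per animal, hippocampus in blue and parietal cortex in red, and bars for the mean and SD. Grm8 is apart between the regions in every group, with all 24 cortical values at or above 3.03 and all hippocampal values at or below 2.81.

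Grm8 encodes mGlu8, a group III receptor of presynaptic terminals. In the 4 Y_Sham rats the Grm8 signal was 1.85, 0.19, 1.61 and 2.08 in hippocampus, against 3.05, 3.40, 3.33 and 4.08 in cortex of the same rats. In the 4 Y_iTBS rats the Grm8 signal was 2.01, 2.41, 2.78 and 2.20 in hippocampus, against 3.38, 3.03, 3.79 and 3.36 in cortex of the same rats. In the 4 AU_Sham rats the Grm8 signal was 1.40, 2.81, 1.32 and 1.04 in hippocampus, against 3.09, 3.62, 3.45 and 3.84 in cortex of the same rats. In these 12 rats the cortex was higher each time, most in Y_Sham 2, where the hippocampal value was the lowest of all. In the 5 AU_iTBS rats the Grm8 signal was 1.84, 1.18, 2.40, 2.40 and 2.32 in hippocampus, against 3.34, 3.08, 3.24, 3.75 and 3.49 in cortex of the same rats. In the 4 AI_Sham rats the Grm8 signal was 2.04, 2.45, 2.23 and 2.28 in hippocampus, against 3.12, 3.51, 3.97 and 3.83 in cortex of the same rats. In the 3 AI_iTBS rats the Grm8 signal was 2.35, 2.03 and 2.43 in hippocampus, against 3.22, 3.17 and 3.25 in cortex of the same rats. The AI animals were close to each other in hippocampus, from 2.03 to 2.45 in both treatments. The cortical signal was higher in 24 of 24 rats and the 2 regions did not overlap, which held for 2.87% of all probes tested.

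Grm8 was lower in hippocampus by 1.43 log2 units (SE 0.11, n = 24 animals, 2.70-fold, limma adjusted p = 7.37e-10). The difference was larger in size than that of 96.5% of the probes tested. The second Grm8 probe was well above background in 17 of 24 hippocampal samples, so the hippocampal signal of the other 7 has only an upper bound. Its measured difference was -1.62 (limma adjusted p = 2.8e-10), which is therefore not exact. The values of the 2 Grm8 probes followed each other over the animals, with r 0.76 in hippocampus and 0.51 in cortex. Within scan batch 1 the Grm8 difference was -1.40. Over the later batches, where the regions were mostly scanned apart, it was -1.44. By group it ran from -2.03 (Y_Sham) and -1.86 (AU_Sham) to -1.04 (Y_iTBS) and -0.95 (AI_iTBS). Taken alone, the lead probe did not pass in AI_iTBS (limma adjusted p = 0.0744) and passed in the other groups. The iTBS minus sham contrast of this regional difference was 0.64 (SE 0.22, unadjusted p = 0.00929, limma adjusted p = 0.999), and no probe passed it (0%).

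Grm4 encodes mGlu4, best known from cerebellar parallel fibre terminals. Its cortical signal ran from 4.87 to 5.74 (median 5.25) and its hippocampal signal from 3.75 to 5.42 (median 4.66), so the regions overlapped. The hippocampal values varied more between animals (SD 0.48, against 0.24 in cortex). Grm4 was higher in cortex in 22 of 24 rats, by 0.62 log2 units (SE 0.085, 1.54-fold, limma adjusted p = 3.2e-06), and the difference was -0.52 in batch 1 and -0.76 in the later batches. The exceptions were Y_iTBS 3 (0.28) and AU_iTBS 4 (0.12). The group differences ran from -0.94 in AU_Sham to -0.38 in AI_iTBS and -0.10 in Y_iTBS. Taken alone, AI_iTBS and Y_iTBS did not pass.

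Grm3 encodes mGlu3, found on glia as well as on neurons. It had the smallest spread of the 6 genes in hippocampus, from 3.26 to 3.88 with a median of 3.57, and ran from 2.94 to 4.20 with a median of 3.88 in cortex. Grm3 was higher in cortex in 20 of 24 rats, by 0.28 log2 units (SE 0.061, 1.21-fold, limma adjusted p = 0.000648). It was higher by 0.27 in batch 1 and by 0.27 over the later batches. Its lowest cortical value, 2.94 in AU_Sham 1, lay below every hippocampal one. Taken alone, only the AU_iTBS group passed (-0.43, limma adjusted p = 0.0211).

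Grm2 encodes mGlu2, a presynaptic receptor of glutamate terminals. Its lead probe ran from 3.78 to 5.23 in hippocampus and from 3.67 to 5.47 in cortex, with 12 rats higher in each region. The fitted difference was 0.02 with a 95% interval of -0.14 to 0.18 (limma adjusted p = 0.861). The second Grm2 probe was lower in hippocampus in 19 of 24 rats, by 0.38 (SE 0.10, limma adjusted p = 0.00365). The 2 Grm2 probes did not follow each other over the animals (r -0.03 in hippocampus and -0.15 in cortex), so the regional pattern of Grm2 depends on the probe.

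Grm7 encodes mGlu7, a receptor of low glutamate affinity at the active zone. Its lead probe was 0.60 to 1.60 in hippocampus and 0.26 to 1.74 in cortex, higher in hippocampus in 20 of 24 rats, and the difference of 0.13 (95% interval -0.01 to 0.27) did not pass (limma adjusted p = 0.129). It was 0.27 in batch 1 and -0.12 in the later batches. The second Grm7 probe went the other way, at -0.42 (SE 0.13, limma adjusted p = 0.0121), with 19 of 24 rats higher in cortex. The lead and second probes of Grm7 correlated at r 0.11 in hippocampus and 0.35 in cortex.

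Grm5 was the gene of the set that was higher in hippocampus. Its lead probe, designed to a predicted transcript (XM_006229659), ran from 1.99 to 4.22 in hippocampus and from 1.22 to 3.95 in cortex, and the hippocampal value was higher in 20 of 24 rats. The difference was 0.37 (SE 0.078, 1.30-fold, limma adjusted p = 0.000436). It was 0.53 in batch 1 and 0.10 in the later batches, and with scan batch as a block over its 3 patterns, 1 of which held only AU_iTBS 3, it was 0.13 and no longer passed. With the first and the later batches as a block it was 0.31 (limma adjusted p = 0.000566). Without a block, no group taken alone passed, and the smallest limma adjusted p was 0.052 in Y_Sham. The second Grm5 probe, to the curated transcript (NM_017012), gave 0.24 (SE 0.11, limma adjusted p = 0.0914), with 0.46 in batch 1 and -0.24 in the later batches. In cortex the mean of this probe was 2.54 in the 15 rats of batch 1 and 3.45 in the 9 rats of the later batches.

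**Figure D2:**
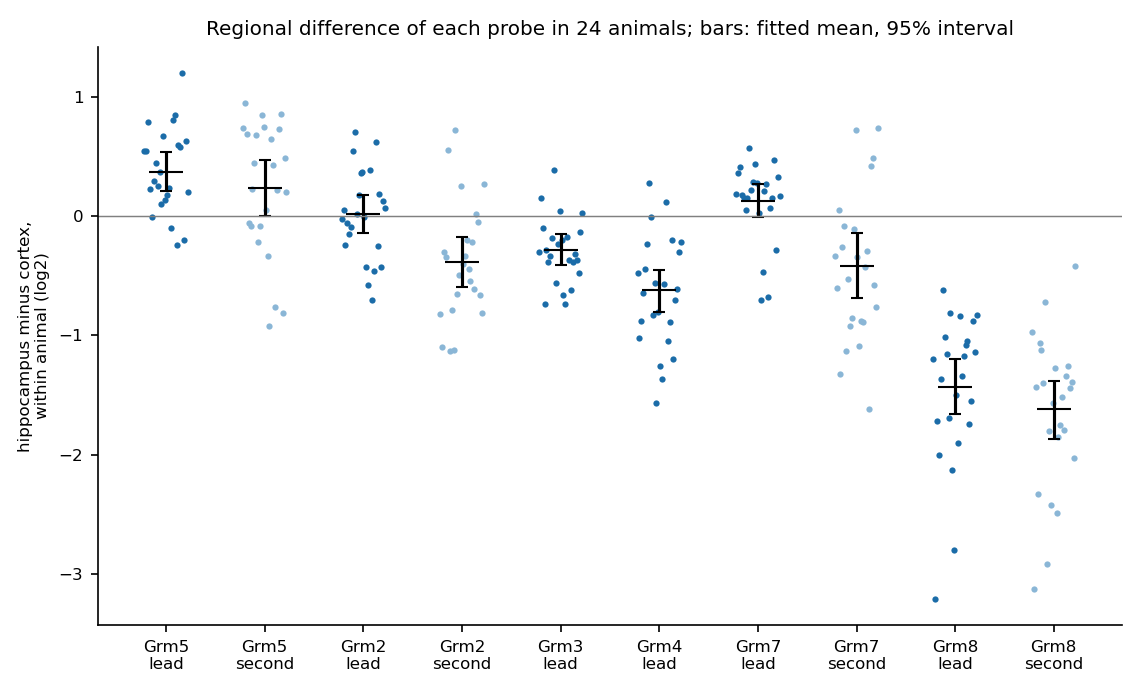
Hippocampus minus cortex within each animal (vertical axis, log2) for the 10 probes, lead probes dark and second probes light, with 1 point per animal and bars for the fitted mean and its 95% interval. Every animal lies below 0 for both Grm8 probes, while the 2 probes of Grm7 have means on opposite sides of 0.

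No lead probe passed the test of a change in the regional difference with age, treatment or cognitive status. For aged minus young limma called 0 of 6 lead probes and 0.0237% of all probes, and for AI minus AU 0 of 6 and 0%. The contrasts with the smallest unadjusted p were those of iTBS minus sham for Grm8, given above, and for Grm4, at 0.38 (SE 0.17, unadjusted p = 0.0368, limma adjusted p = 0.999).

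Rats with a high Grm5 signal in hippocampus also had a high one in cortex. AU_Sham 4 had the lowest lead probe signal in hippocampus (1.99) and the second lowest in cortex (1.84). AI_Sham 4 had the second lowest in hippocampus (2.42) and the lowest in cortex (1.22). Y_Sham 2, with 4.22 and 3.67, was the highest in hippocampus and the third highest in cortex. Over the 24 animals, hippocampal and cortical Grm5 correlated at Pearson r 0.86 (permutation p = 1e-05, the smallest that 100000 permutations can give, 0.0001 adjusted over 10 probes) and Spearman rho 0.92 (permutation p = 1e-05). Without the 2 animals farthest from the median in hippocampus r was 0.88, and it was 0.88 within batch 1 (n = 15) and 0.76 within the later batches (n = 9). Over the 30856 probes tested in both regions the median r was 0.05, and 95% of them were below 0.60.

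The second Grm5 probe did not show this, with r 0.27 over all animals (permutation p = 0.208), -0.12 in batch 1 and -0.24 in the later batches. The 2 Grm5 probes correlated with each other at r 0.07 in hippocampus and 0.54 in cortex, where both were higher in the later batches. The lead probe of Grm2 also correlated between regions, at r 0.60 (permutation p = 0.00181, adjusted 0.00905) and rho 0.68 (permutation p = 0.00045), with 0.61 in batch 1 and 0.80 in the later batches. Without its 2 farthest animals r was 0.66. The other 7 probes had r of 0.10 to 0.34 and did not pass, although Grm7 reached 0.79 within batch 1 against 0.02 within the later batches.

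**Figure D3:**
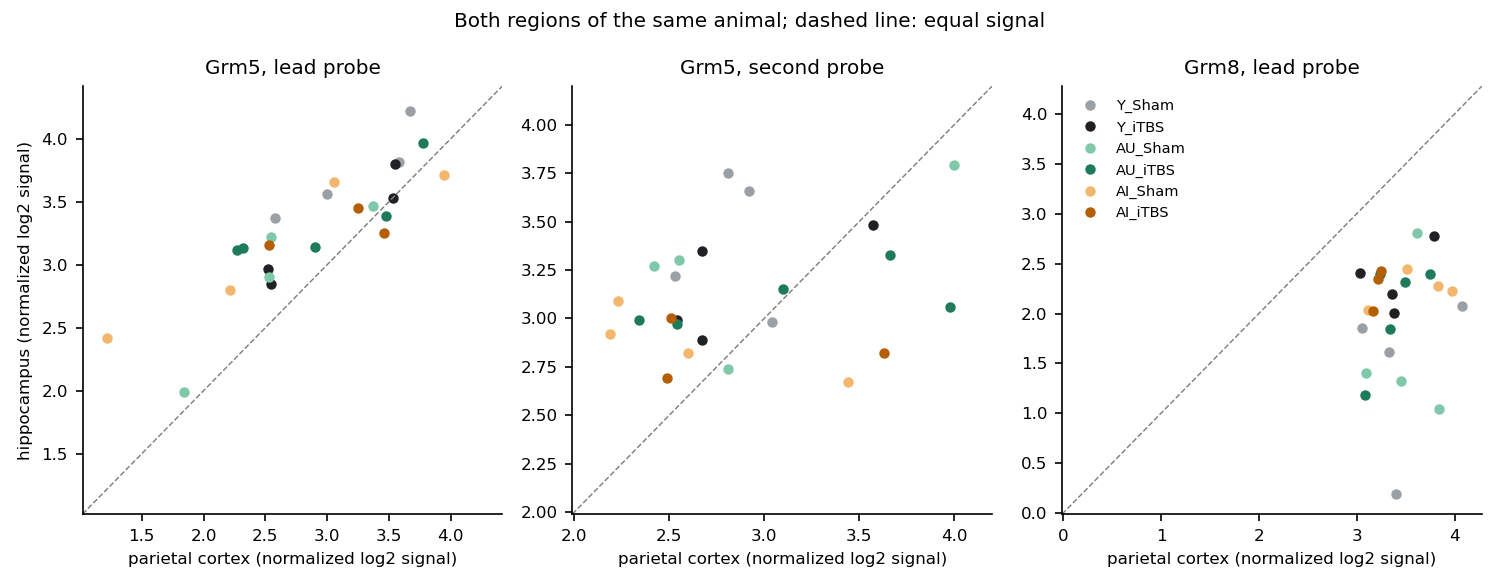
Normalized log2 signal in hippocampus (vertical axis) against parietal cortex (horizontal axis) of the same 24 animals for both Grm5 probes and the lead Grm8 probe, with colors for the 6 groups and a dashed line of equal signal. The lead Grm5 probe runs along the line (r 0.86), while all Grm8 points lie below it with r 0.17.

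The comparison of iTBS with sham asked whether stimulation had left a difference in receptor transcripts at 48 h. No member passed the limma test in young, AU or AI rats in either region. Of the 36 pairs of lead probe, group and region, 0 passed the adjusted threshold and 3 had an unadjusted p under 0.05. Over all probes, the share at an unadjusted p under 0.05 in the same 6 comparisons was 3.98%. At the adjusted threshold 0% of the probes passed in each of them, apart from AI cortex with 0.00613%. In 22 pairs the mean was higher after iTBS and in 14 lower, and 34 of the 36 differences were within 0.5 log2 units of 0. With the 3 groups averaged, no member passed in hippocampus or cortex either, and 0% of the probes did.

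The differences beyond 0.5 were both in young hippocampus, in Grm4 and Grm8. In young rats the hippocampal Grm4 signal was 4.41, 3.85, 4.26 and 4.73 after sham and 4.65, 5.06, 5.35 and 5.42 after iTBS. The lowest stimulated rat lay just below the highest sham rat, so that the groups overlapped by this pair. The difference was 0.80 (SE 0.28, 95% interval 0.21 to 1.39, unadjusted p = 0.00998, limma adjusted p = 0.93), and it was 0.78 in batch 1 and 0.51 in the later batches. For Grm8, with the hippocampal values of Y_Sham and Y_iTBS given above, it was 0.92 (SE 0.38, 95% interval 0.13 to 1.70, unadjusted p = 0.0248, limma adjusted p = 0.93), with 0.62 in batch 1 and 0.99 in the later batches. For both genes the later-batch value rests on 2 Y_Sham rats and 1 Y_iTBS rat. Without Y_Sham 2, the rat with the lowest Grm8 signal, the Grm8 difference was 0.50. The second Grm8 probe, not well above background in all hippocampal samples, gave 0.96 (unadjusted p = 0.023).

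In aged hippocampus the Grm4 difference was 0.03 (95% interval -0.53 to 0.59) in AU and 0.01 (95% interval -0.62 to 0.65) in AI rats. For Grm8 it was 0.39 (95% interval -0.36 to 1.13) and 0.02 (95% interval -0.83 to 0.87). The aged minus the young iTBS effect on hippocampal Grm4 was -0.78 (SE 0.35, unadjusted p = 0.0357, limma adjusted p = 0.799), and no probe passed that contrast in hippocampus or cortex (0%). The response of Grm4 is therefore not shown to differ with age.

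**Figure D4:**
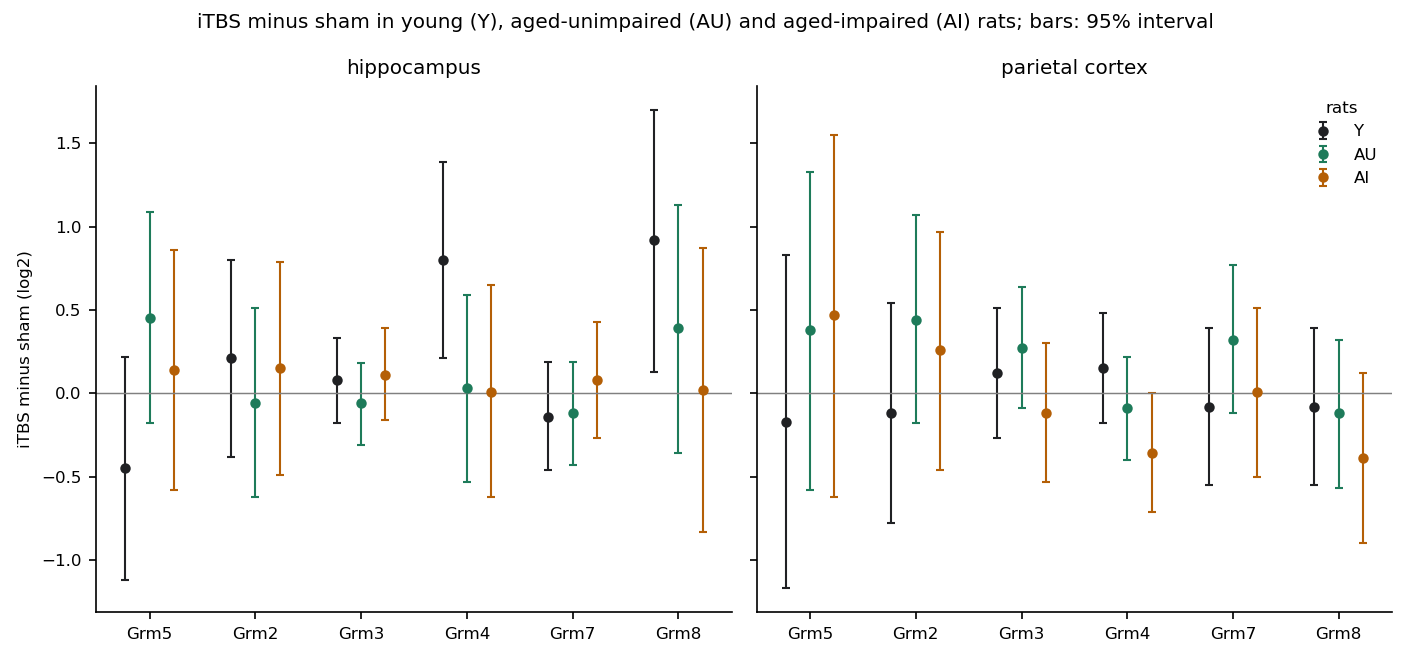
iTBS minus sham (vertical axis, log2) for the lead probe of each gene in hippocampus (left) and parietal cortex (right), in young (Y), aged-unimpaired (AU) and aged-impaired (AI) rats, with bars for the 95% interval before adjustment. The young hippocampal intervals of Grm4 (0.21 to 1.39) and Grm8 (0.13 to 1.70) lie above 0, and neither passed after adjustment.

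Hippocampal samples that held more signal of cortical markers also held more Grm4 and Grm8. Both genes were higher in cortex than in hippocampus, and the share of all probes that follow such marker lists was not counted. The 7 parietal cortex markers, all tested, had a mean of 0.84 to 1.29 in Y_Sham hippocampus, 1.07 to 1.64 in Y_iTBS, 0.46 to 1.17 in AU_Sham, 0.63 to 1.31 in AU_iTBS, 0.74 to 1.60 in AI_Sham and 0.84 to 1.5 in AI_iTBS. In hippocampus, 6 of them were well above background in 24 of 24 animals and Tbr1 in 23. Over the 24 hippocampal samples Grm4 correlated with this mean at r 0.79 (permutation p = 1e-05, adjusted 0.00012 over 12 relations) and rho 0.79 (permutation p = 1e-05), at r 0.80 without the 2 farthest animals, and at 0.78 in batch 1 and 0.63 in the later batches. Grm8 correlated at r 0.62 (permutation p = 0.00103, adjusted 0.00309) and rho 0.68 (permutation p = 0.00045), at 0.58 without the 2 farthest animals, 0.72 in batch 1 and 0.29 in the later batches.

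Against the mean of the 5 hippocampus markers the same 2 genes ran the other way, Grm4 at r -0.66 (permutation p = 0.00039, adjusted 0.00156) and rho -0.70 (permutation p = 0.00023), and Grm8 at r -0.68 (permutation p = 0.00028, adjusted 0.00156) and rho -0.72 (permutation p = 7e-05). Without the 2 farthest animals r was -0.71 and -0.76. Within batch 1 and the later batches these were -0.65 and -0.88 for Grm4 and -0.66 and -0.72 for Grm8. Grm2 reached r 0.51 with the cortical markers (permutation p = 0.0104, adjusted 0.025) and rho 0.55 (permutation p = 0.00672), r 0.56 without its 2 farthest animals, with 0.23 in batch 1 and 0.76 in the later batches, and Grm3, Grm5 and Grm7 passed with neither list. The hippocampus marker mean was 5.08 to 5.39 in Y_Sham and 4.86 to 5.04 in Y_iTBS, without overlap. This was not particular to that list. The choroid plexus markers (1.64 to 2.93 against 0.65 to 1.52) and the striatum markers (2.86 to 3.15 against 3.22 to 3.48) did not overlap either. The other marker lists did overlap between these groups. The part of these markers in the young Grm4 and Grm8 values was not tested.

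**Figure D5:**
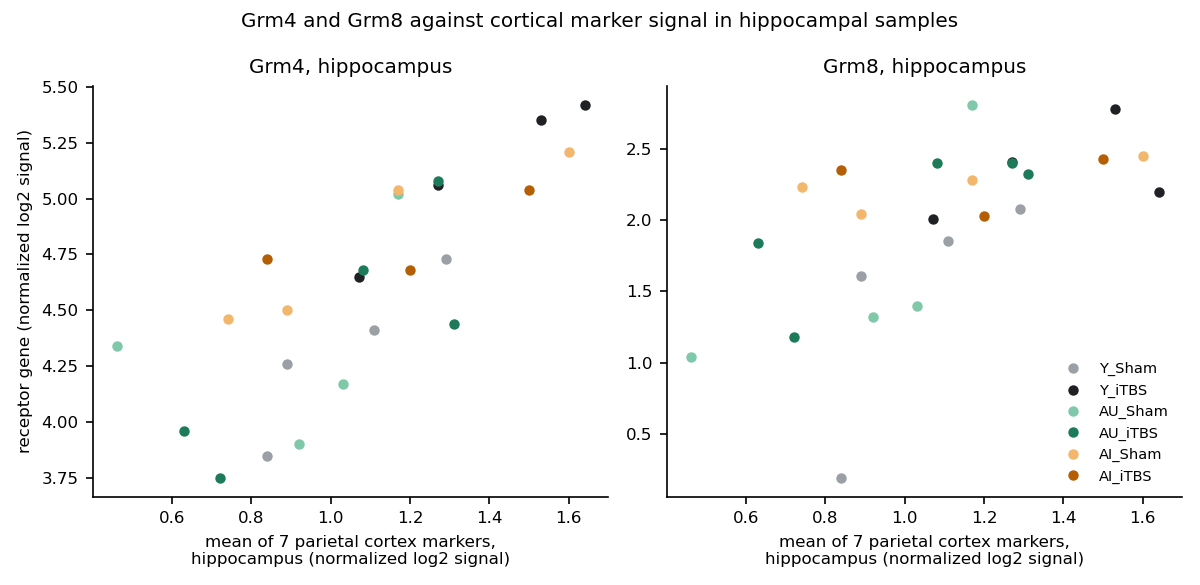
Normalized log2 signal of Grm4 (left) and Grm8 (right) in hippocampus (vertical axis) against the mean of 7 parietal cortex markers in the same hippocampal sample (horizontal axis), with 1 point per animal and colors for the 6 groups. Grm4 rises with the marker mean over the 24 animals (r 0.79), and Grm8 does so with more scatter (r 0.62).

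In parietal cortex the pair with the smallest p was Grm4 in AI rats. Its signal was 5.39, 5.41, 5.66 and 5.74 after sham and 5.34, 4.98 and 5.26 after iTBS. The highest stimulated rat lay just below the lowest sham rat, and the share of all probes separated in this way was not counted. The difference was -0.36 (SE 0.17, unadjusted p = 0.0483, limma adjusted p = 1), with -0.49 in batch 1 and -0.05 in the later batches. The later-batch value rests on 1 sham and 1 stimulated rat. With each animal left out the difference ran from -0.43 to -0.25. The lowest stimulated value, 4.98, was that of AI_iTBS 2. The repeat array of this sample, which resembled another rat more and was not averaged, read 5.27 for Grm4. The AI_Sham group had the highest mean cortical Grm4 of the 6 groups, 5.55 ± 0.17 (SD, n = 4).

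The selection rule of the study's methods combines p-values, a false discovery rate, a z-ratio and a minimum signal. As rebuilt here from the scanner signals of these animals, which may not match the study's own computation, it called no member in any of 8 comparisons. Over all probes it called 0.13% in young, 0.0265% in AU, 0.0575% in AI and 0.031% in all aged hippocampus, and 0.0884%, 0.0508%, 0.0906% and 0.0442% in cortex in the same order. Grm4 in young hippocampus had a z-ratio of 2.231, and its p over all groups, 0.0695, missed the rule.

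The comparison of aged with young rats asked whether receptor transcripts change with age. No member passed in sham rats or in all rats, in hippocampus (0.00308% and 0.512% of the probes called) or in cortex (0.104% and 0.402%). Of 24 pairs of lead probe and comparison, 4 had an unadjusted p under 0.05, against 11.3% of pairs over all probes. In sham hippocampus Grm5 was 3.56, 4.22, 3.37 and 3.82 in young, 2.90, 3.47, 3.22 and 1.99 in AU and 3.71, 3.66, 2.80 and 2.42 in AI rats. Of the 8 aged sham rats, 5 lay below every young sham rat and 3 lay within the young range, and the difference was -0.72 (SE 0.28, unadjusted p = 0.0175, limma adjusted p = 0.596). The second Grm5 probe gave -0.33 for the same comparison (unadjusted p = 0.0628). With stimulated rats included, the lead probe gave -0.34 (SE 0.20, limma adjusted p = 0.45). The second probe then gave -0.27 (SE 0.12, unadjusted p = 0.035, limma adjusted p = 0.345).

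For hippocampal Grm7 the aged minus young difference was -0.29 in sham animals (unadjusted p = 0.044, limma adjusted p = 0.605) and -0.23 in all animals (unadjusted p = 0.0251, limma adjusted p = 0.317), neither of which passed. The second Grm7 probe gave 0.32 in sham animals, the opposite direction. For cortical Grm4 in sham rats it was 0.36 (SE 0.14, unadjusted p = 0.0168, limma adjusted p = 0.448), with 0.25 in batch 1 and 0.31 in the later batches. The later-batch value rests on 2 young, 1 AU and 1 AI sham rat.

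The comparison of AI with AU rats addressed cognitive status among the aged. Of 24 pairs, 0 passed and 3 had an unadjusted p under 0.05, against 6.7% over all probes. The share of probes called was 0% in sham hippocampus, 0.00308% in all hippocampus and 0% in both cortical contrasts. Grm7 had 2 of the 3 pairs. In sham hippocampus it was 1.23, 1.07, 1.60 and 0.91 in AU and 0.60, 1.16, 0.83 and 0.73 in AI rats, and the groups overlapped. The difference was -0.37 (SE 0.16, unadjusted p = 0.0267, limma adjusted p = 1) in sham rats and -0.27 (SE 0.11, unadjusted p = 0.0239, limma adjusted p = 0.722) in all aged rats. For hippocampal Grm4 the AI minus AU difference over all aged rats was 0.44 (SE 0.20, unadjusted p = 0.0432, limma adjusted p = 0.745). The mean of the parietal cortex markers in the same hippocampal samples was 0.90 in AU_Sham, 1.00 in AU_iTBS, 1.10 in AI_Sham and 1.18 in AI_iTBS, and that of the hippocampus markers was 5.20, 5.13, 5.00 and 4.85 in the same order. In the AI minus AU comparison the hippocampus markers had a median difference of -0.23, with 3 of 5 at an unadjusted p under 0.05, and the parietal cortex markers one of 0.22, with 0 of 7. No marker of these lists passed after adjustment. The choroid plexus (0.4) and thalamus (0.34) markers had larger median differences, with 0 of 5 and 1 of 3 at an unadjusted p under 0.05, and none passed. The part of any of these lists in the Grm4 value was not tested.

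The order of the group means was mostly within the spread between animals. In hippocampus the mean of Grm4 ran from 5.12 ± 0.35 (SD, n = 4) in Y_iTBS to 4.31 ± 0.36 (SD, n = 4) in Y_Sham, in the order Y_iTBS, AI_iTBS, AI_Sham, AU_iTBS, AU_Sham and Y_Sham. Grm8 had the same order of groups in hippocampus, from 2.35 ± 0.33 (SD, n = 4) to 1.43 ± 0.85 (SD, n = 4). Hippocampal Grm5 ran from 3.74 ± 0.37 (SD, n = 4) in Y_Sham to 2.89 ± 0.65 (SD, n = 4) in AU_Sham, and Grm7 from 1.31 ± 0.13 (SD, n = 4) in Y_Sham to 0.83 ± 0.24 (SD, n = 4) in AI_Sham. The ranges of the group means were 0.39 for Grm2 and 0.17 for Grm3. In cortex the ranges of the group means were 0.27 (Grm3), 0.38 (Grm7), 0.39 (Grm8), 0.44 (Grm2), 0.48 (Grm4) and 0.64 (Grm5). Neighbours in these orders differed by less than the larger of their SDs for all genes in both regions, except for hippocampal Grm5, where Y_Sham stood 0.39 above AU_iTBS.

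Genes of the receptors' signaling pathways, 59 in 6 lists with 57 tested, were compared between regions in the same fit. In the region comparison 14 were higher in hippocampus and 16 in cortex, with a median difference of 0.04, near the shares of 26.3% and 23.2% over all probes. Grm6, the family member of retinal bipolar cells, had a difference of 0.24 and did not pass (limma adjusted p = 0.171).

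In the list of group I coupling, 5 genes were higher in hippocampus, 5 higher in cortex and 4 did not pass. The scaffold gene Homer3 was higher in hippocampus in 24 of 24 rats, by 2.54 (SE 0.068, 5.83-fold, limma adjusted p = 2.05e-17). The Gq family gene Gna11 was higher there by 0.35. Toward cortex the largest were the phospholipase gene Plcb4 by 1.79 (difference -1.79, SE 0.082, limma adjusted p = 1.37e-13), Prkcb (-0.64) and Homer1 (-0.58). Gnaq and Plcb1 did not pass, at 0.10 and -0.04.

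In the list of group II and III coupling, 1 gene was higher in hippocampus, 4 higher in cortex and 11 did not pass. The exception toward hippocampus was the inward rectifier gene Kcnj6, by 0.94 (limma adjusted p = 2.2e-10), while its relative Kcnj9 was higher in cortex (-0.82, limma adjusted p = 4.59e-12). The presynaptic calcium channel gene Cacna1b (-0.51) and the adenylyl cyclase gene Adcy5 (-0.42) were also higher in cortex. The Gi genes Gnai1, Gnai2 and Gnai3 did not pass, and Gnao1 was higher in cortex (-0.22).

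Of the scaffolds and trans-synaptic partners, Grip1 was higher in hippocampus (0.25) and the other 4, Pick1, Tamalin, Elfn1 and Elfn2, did not pass. Of 9 desensitization genes, 2 were higher in hippocampus and 5 in cortex. Rgs4, a regulator of G protein signaling, was higher in cortex in 24 of 24 rats (-2.11, SE 0.17, 4.32-fold, limma adjusted p = 9.93e-10), as was Rgs7 (-0.64), and Rgs2 was higher in cortex in 22 of 24 (-0.60). Rgs14, known for its expression in hippocampal area CA2, was higher in hippocampus by 1.04 (limma adjusted p = 6.36e-11), and the arrestin gene Arrb2 by 0.20. Of the glutamate and NAAG genes, 4 were higher in hippocampus, 2 in cortex and 5 did not pass. The neuronal glutamate transporter gene Slc1a1 led toward hippocampus (0.72), followed by the vesicular transporter Slc17a6 (0.55) and the cystine-glutamate exchanger Slc7a11 (0.54). The NAAG synthetase gene Rimklb was among those higher in cortex (-0.17).

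None of the 57 pathway genes passed for iTBS minus sham in any of the 3 groups, for aged minus young, or for AI minus AU over all aged animals, in either region. The iTBS minus sham difference of Rgs4 in young hippocampus was 1.19 (unadjusted p = 0.0452, limma adjusted p = 0.93). In the same comparison Kcnj9 (0.51), the scaffold gene Shank2 (0.27), Kcnj6 (-0.58) and Slc1a1 (-0.22) also had an unadjusted limma p under 0.05. Over all probes, 1471 of 32438 did. Between regions, Rgs4 (-2.11), Kcnj9 (-0.82) and Shank2 (-0.57) were higher in cortex, and Kcnj6 (0.94) and Slc1a1 (0.72) in hippocampus. In hippocampus the parietal cortex marker mean was 1.03 in Y_Sham and 1.38 in Y_iTBS. The hippocampus marker mean was 5.22 and 4.98 in the same order. The part of these markers in the pathway values was not tested.

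The genes whose signals were most like each receptor were sought over the 24 animals, with scan batch means removed, as the highest mean of the within-region correlations. Grm4 had the closest, Sytl1 (mean r 0.83), Coro6 (0.81) and Tcf19 (0.79). For Grm8 they were Crtac1 (0.71) and Cntn4 (0.69), and for Grm3 Cabin1 (0.69), Syt6 (0.68) and Ltbp4 (0.68). Grm7 had Csnk2a2 (0.68), Pgbd5 (0.67) and Cdkl2 (0.67), Grm5 had Drp2 (0.66), Pak5 (0.66) and Adgrb3 (0.65), and Grm2 had Camp (0.63), Trib3 (0.56) and Cish (0.56). Among the receptors themselves, Grm4 and Grm8 correlated at r 0.75 in hippocampus and 0.21 in cortex, and Grm5 and Grm7 at 0.50 and 0.45. These correlations describe animals that share scan days and dissection, and the genes were picked for them.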

How the data were processed

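Total RNA of 48 samples was labeled with 1 dye and hybridized to Agilent rat gene expression arrays. Of 56 arrays, 48 were first arrays, 7 technical repeats and 1 was in no group, since its labels disagree. The deposited scanner files give each feature's processed signal intensity (background subtracted by the authors' software, not normalized between arrays). The authors' deposited table of z-scores (score per feature and array) was used as an alternative.

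Here log2 processed signals were turned into z-scores within each array over non-control probes, as in the study's methods, and rescaled with the average SD of the arrays (4.081). A probe was tested when well above background in at least 3 of 24 animals. Repeats were averaged with the first array where they resembled it most. Probes were named through RefSeq accessions, and 46.3% of 45598 had a symbol. Group means were fitted with limma 3.58.1 in R 4.3.3 for each region and for hippocampus minus cortex within animals. Tests are two-sided, with Benjamini-Hochberg adjustment over all probes tested. Correlations used 100000 permutations. The number of arrays limits the precision, and the spread is that between animals. The code was tested on simulated data.

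The members, gene lists and tests were chosen with earlier results of these data known. Named were every member, the 3 genes most like each, from each pathway list up to 3 genes a direction among those called, and pairs of member and comparison with an unadjusted p under 0.05. Grm6, Gnaq, Plcb1, Gnai1, Gnai2, Gnai3, Gnao1, Arrb2, Pick1, Tamalin, Elfn1 and Elfn2 are named beside them to complete their lists. Rgs4 in the iTBS comparison was picked after its values were seen, and the other pathway genes under 0.05 in that comparison are named beside it. Some genes that this rule names are not reported here. Alternatives were 75th percentile scaling, quantile normalization, normexp background correction (offset 50) on the median spot signal, since the mean was not among the columns used, the z-scores of the authors, no filter, a filter at 12 of 24 animals, other handling of repeats, scan batch, slide and replicate number as blocks, leaving out each animal, the other probe of a gene and the study's selection rule. A block of first against later scan batches was added after seeing the data.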

Additional observations from a re-analysis of the deposited data

Results flagged for a closer look

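In cortex the Grm7 signal of Y_iTBS 1 was 1.24, while the other 3 Y_iTBS rats were at 0.80 to 0.87. The gap to the nearest of the others was 0.838 of the group's range, above Dixon's 95% critical value for 4 animals. It was the only group flagged among 60 groups of 4 or 5 animals for the 6 lead probes in both regions, and chance flags about 1 group in 20. The 12 groups of 3 animals were not examined.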

How the results depend on the processing

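The number of lead probes called between regions was 4 and ranged from 3 to 5 over 13 alternatives and from 4 to 5 when each animal was left out, the 5 arising without AI_Sham 1, where Grm7 also passed. Grm3, Grm4 and Grm8 passed under all of these. Grm5 was lost with scan batch as a block (0.13), with the regions treated as unpaired (0.37) and with its second probe (0.24). With each gene's second probe in place of the lead, 5 genes passed, Grm2 and Grm7 toward cortex and Grm5 no longer. For iTBS minus sham, the aged minus young iTBS effect, aged minus young, AI minus AU, and the contrasts of the regional difference, 0 lead probes passed in every alternative and with each animal left out. With the second probe, the Grm7 difference of aged minus young sham hippocampus reversed to 0.32, and the Grm5 regional difference in AU_iTBS to -0.02. Replicate numbers of different groups mark different rats and pair nothing. A paired fit with the replicate number as a block (replicate block) gave 0.80 for Grm4 and 0.92 for Grm8 in young hippocampus after iTBS, and 0 called members in all comparisons. The second probes of Grm2, Grm7 and Grm8 differed by up to 0.60 between repeats of a sample, which limits what they can show.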

Other observations

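The array whose title names a young sham hippocampus and whose description names an aged stimulated animal entered no comparison. Its lead probe signals were 5.13 for Grm2, 3.46 for Grm3, 4.98 for Grm4, 3.16 for Grm5, 1.58 for Grm7 and 2.43 for Grm8. All 6 lay within the range of the 24 hippocampal samples, and Grm2 and Grm7 lay near its upper end (5.23 and 1.60). Its second probes read -0.42 for Grm2, 3.12 for Grm5, -0.77 for Grm7 and -1.96 for Grm8.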
